A study of Homo sapiens with 6 samples.

Results

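The libraries described here are the 3 of 6 in the series that were made from SH-SY5Y, an established human line of neuroblastoma cells, after transfection with OE-NC. They were chosen by their sample labels alone. Total RNA was taken with TRIzol 72 h after transfection, and all 6 libraries share the line, the hours and a SMARTER mRNA kit. OE-NC, whose letters are not explained in the labels, was read as the negative control of a circ-SHPRH overexpression. No level of untransfected cells was analysed here, so the state described is that of transfected cells. The labels do not say that the libraries came from separate cultures, so the spread between them may be technical. No comparison with the other 3 libraries was made.

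Neuroblastoma arises from the sympathetic branch of the neural crest. Its adrenergic state is held by a set of transcription factors that bind each other's genes, among them HAND2, GATA3, ISL1 and TBX2, and it is known for catecholamine synthesis and dense-core vesicles. The mesenchymal state, known from other neuroblastoma cells, is tied to factors such as PRRX1, SNAI2 and YAP1 and resembles migrating neural crest. SH-SY5Y is a subclone of SK-N-SH and is usually placed in the adrenergic state.

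The deposited table held 28752 genes with raw counts and FPKM, a read count scaled by exon length and by the library total. Counts summed to 15657848, 17454486 and 17591718 in OE-NC replicates 1, 2 and 3. Per library, 24277 to 24511 genes were detected with 1 count or more. A gene was called expressed at an FPKM of at least 1 in all 3 libraries, and 12929 genes (45.0% of the table) met this. Of the 15917 nuclear protein-coding genes 10897 did (68.5%), 232 of them at an FPKM of at least 100 in every library. Another 271 nuclear coding genes of the table (1.70%) had 0 counts in all 3 libraries. Genes absent from the table are not counted here, and of 25 listed genes specific to single organs it held 12. These shares are therefore of the genes in the table, not of all human genes. The median of the mean FPKM was 4.10 over nuclear coding genes and 8.04 over the expressed ones, and the levels below are read against these medians.

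The 4 marker genes were HAND2, GATA3, DBH and CDKN1A, and all were well above those medians in every library. CDKN1A is a p53 and cell cycle gene, so its level does not bear on the lineage of the cells. HAND2 (ENSG00000164107), a basic helix-loop-helix factor of sympathetic neurons, had FPKM values of 372.6, 378.1 and 369.7 in replicates 1 to 3. GATA3 (ENSG00000107485), a zinc finger factor needed for sympathetic neurons, had FPKM values of 184.1, 186.8 and 188.0. DBH (ENSG00000123454), which turns dopamine into noradrenaline, had FPKM values of 65.4, 68.0 and 66.2. These values fell within a few percent of each other, and the 3 libraries gave the genes the same order. CDKN1A (ENSG00000124762), whose product p21 inhibits cyclin-dependent kinases, had FPKM values of 249.7, 249.7 and 248.1. By mean FPKM, HAND2 was 38th, CDKN1A 68th, GATA3 99th and DBH 415th among the nuclear coding genes. The means were 373.5 ± 4.25 (SD, n = 3) for HAND2, 249.2 ± 0.932 for CDKN1A, 186.3 ± 1.95 for GATA3 and 66.5 ± 1.32 for DBH, all as FPKM. In a bulk sample fewer cells of a type and less RNA per cell cannot be told apart.

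The stretches of 250 bases before the first start that RefSeq lists for these 4 genes are shown, with PHOX2A as the most abundant transcription factor and ALB as a liver gene with 0 counts. They are printed 5′ to 3′ on the gene's strand, from RefSeq on GRCh38.p14, with each CpG in capitals. PHOX2A and ALB were chosen after their values were seen.
HAND2: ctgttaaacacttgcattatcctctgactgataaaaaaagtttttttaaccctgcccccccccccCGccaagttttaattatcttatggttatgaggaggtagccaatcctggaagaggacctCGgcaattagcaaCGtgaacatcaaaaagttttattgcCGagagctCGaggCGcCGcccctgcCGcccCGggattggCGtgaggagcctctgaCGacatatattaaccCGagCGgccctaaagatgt
GATA3: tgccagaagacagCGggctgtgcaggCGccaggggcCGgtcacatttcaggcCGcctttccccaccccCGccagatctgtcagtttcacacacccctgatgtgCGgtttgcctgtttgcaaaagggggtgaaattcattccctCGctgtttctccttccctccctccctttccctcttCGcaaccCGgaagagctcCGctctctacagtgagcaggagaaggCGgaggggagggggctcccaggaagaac
DBH: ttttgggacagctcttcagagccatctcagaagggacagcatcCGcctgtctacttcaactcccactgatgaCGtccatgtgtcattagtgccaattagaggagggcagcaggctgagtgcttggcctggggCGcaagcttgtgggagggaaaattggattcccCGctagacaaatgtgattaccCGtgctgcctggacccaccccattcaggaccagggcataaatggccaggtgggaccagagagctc
CDKN1A: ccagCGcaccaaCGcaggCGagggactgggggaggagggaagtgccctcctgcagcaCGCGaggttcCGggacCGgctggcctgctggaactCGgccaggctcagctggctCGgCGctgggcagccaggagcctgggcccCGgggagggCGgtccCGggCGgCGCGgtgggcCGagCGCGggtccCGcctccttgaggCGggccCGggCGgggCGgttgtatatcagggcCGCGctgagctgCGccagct
PHOX2A: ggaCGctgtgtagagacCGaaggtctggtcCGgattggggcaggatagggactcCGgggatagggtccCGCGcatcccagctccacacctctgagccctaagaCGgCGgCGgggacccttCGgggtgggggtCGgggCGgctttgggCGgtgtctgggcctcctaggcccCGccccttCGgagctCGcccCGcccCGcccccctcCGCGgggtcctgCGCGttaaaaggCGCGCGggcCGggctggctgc
ALB: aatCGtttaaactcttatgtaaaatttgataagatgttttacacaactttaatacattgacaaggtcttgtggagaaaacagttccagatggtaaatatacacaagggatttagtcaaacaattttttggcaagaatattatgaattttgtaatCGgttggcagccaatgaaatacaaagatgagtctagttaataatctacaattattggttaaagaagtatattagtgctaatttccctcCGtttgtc
HAND2 lies at chr4:173530230-173530479 on the minus strand, GATA3 at chr10:8045083-8045332 and DBH at chr9:133636113-133636362, both on the plus strand. CDKN1A lies at chr6:36678464-36678713 on the plus strand, PHOX2A at chr11:72244177-72244426 on the minus strand and ALB at chr4:73404037-73404286 on the plus strand. Each window precedes the first start that RefSeq lists for a protein-coding gene, and the deposited gene intervals do not all begin there. For HAND2 and GATA3 that start lies at or just before the deposited gene's 5′ end. For DBH it lies 1015 bases inside the deposited interval, for PHOX2A 1488, for CDKN1A 2254 and for ALB 7173, so other starts of these genes have other windows.

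The promoters of these genes differed from each other in CpG content. CDKN1A held 27 CpG and PHOX2A 26, while HAND2 held 13, GATA3 11 and DBH 5; the window of ALB held 3. The median was 20 over the 12606 promoters matched, and 22 over the 8990 of expressed genes. The matched promoters cover 79.2% of the 15917 nuclear coding genes, under the 80% set for such a check, so a comparison with nuclear coding genes as a whole is void and these values describe the matched promoters alone. They cover 82.5% of the expressed genes. The ratio of observed to expected CpG was 0.259 for DBH and 0.480 for GATA3, against 0.758 to 0.854 for CDKN1A, PHOX2A and HAND2. A ratio of at least 0.6 was found in 73.3% of all matched promoters and 84.2% of those of expressed genes, so DBH and GATA3 were in the smaller class of these promoters. Outside chromosomes 8 and Y, 74.0% of the genes that were not expressed had a matched promoter, so a comparison with them is void too.

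The 4 motifs were chosen after the values were seen and were searched in both strands, with matches of different motifs allowed to overlap. CANNTG, the E-box that helix-loop-helix factors bind, was in the windows of HAND2, DBH, CDKN1A and ALB and in 54.97% of the 12606 matched promoters. The motif AGATAA, which zinc finger factors such as GATA3 bind, was in the window of HAND2 among the 6 and in 5.29% of those matched. CCAAT was in HAND2, DBH, PHOX2A and ALB and in 34.8% of those matched. GGGCGG, a GC box that itself holds a CpG, was in HAND2, CDKN1A and PHOX2A and in 63.4% of those matched. GATA3 held none of the 4, which says only that these letters are not in this window.

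**Figure D1:**
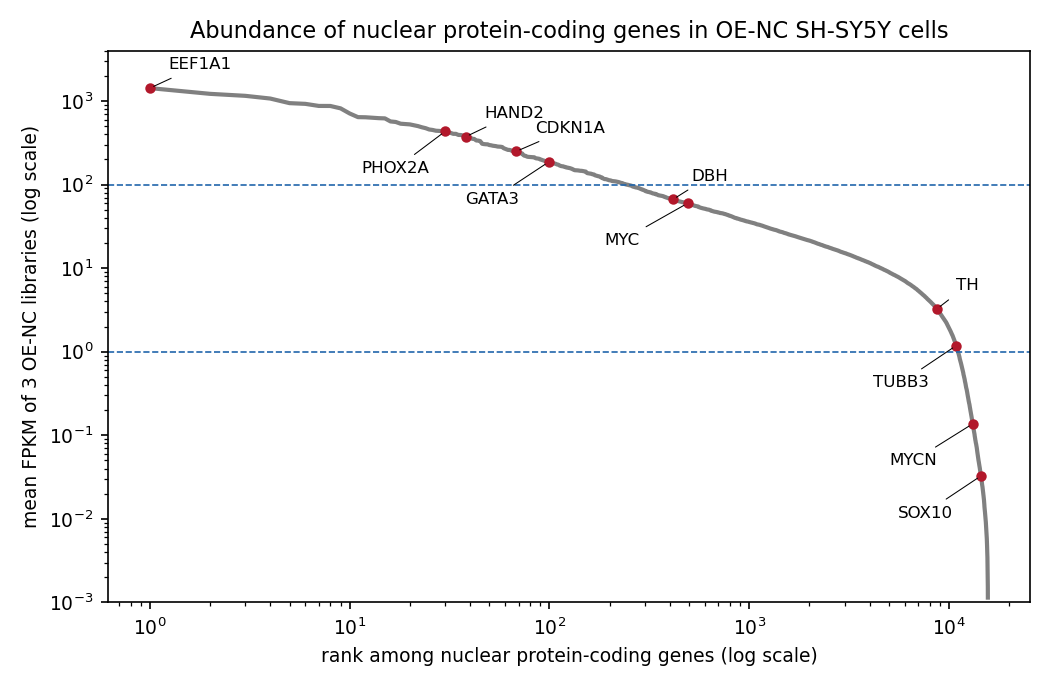
Mean FPKM of the 3 OE-NC libraries (log scale) against the rank of each nuclear protein-coding gene (log scale); the grey line is all genes with at least 1 count, red points are named genes, and dashed lines mark FPKM 1 and 100. HAND2 (rank 38) and GATA3 (rank 99) lie on the upper shoulder above FPKM 100, DBH (rank 415) lies below it, and TH, TUBB3, MYCN and SOX10 lie on the steep right side.

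The most abundant nuclear coding gene was EEF1A1, a translation elongation factor, with a mean FPKM of 1429 ± 4.35 (SD, n = 3). Ribosomal protein genes made up 11 of the top 20, led by RPS27 at 1220 ± 62.5 and RPL41 at 1155 ± 30.8. The others in the top 20 were ferritin light chain FTL at 1072 ± 25.8, MDK at 818.0 ± 10.1, EEF2 at 642.1 ± 11.9, CRABP2 at 639.7 ± 19.8, RGS5 at 624.0 ± 26.3, TMSB10 at 561.9 ± 48.0, HSP90AB1 at 535.7 ± 1.41 and ACTB at 525.7 ± 1.80. MDK, CRABP2 and RGS5 are not general housekeeping genes. MDK encodes the secreted growth factor midkine, CRABP2 a carrier of retinoic acid, and RGS5 a regulator of G protein signalling. MDK had FPKM values of 808.4, 828.5 and 817.0. CRABP2 had FPKM values of 617.8, 656.4 and 644.8. RGS5 had FPKM values of 618.4, 601.0 and 652.7, and a second deposited gene of the same symbol had a mean of 0.820. That second gene has the biotype antisense but lies on the same strand as RGS5, with which it shares 14.7% of its exon bases. In each library, MDK was 9th among the nuclear coding genes.

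Among the 1325 genes to which the authors' table gives a transcription factor family, 955 were expressed, 10 were at an FPKM of at least 100 in every library and 24 had 0 counts. This ranking was chosen after values were seen. Adrenergic regulators took 5 of the 10 most abundant places. PHOX2A, a homeodomain factor that activates DBH, was the highest of all and had FPKM values of 427.5, 437.5 and 432.5. HAND2 was next, GATA3 5th, TBX2 6th and GATA2 9th. The others included the RNA- and DNA-binding YBX1 (353.6 ± 9.26) and CNBP (257.8 ± 2.08), the stress factor ATF4 (147.9 ± 2.64) and the chromatin protein HMGB2 (133.0 ± 2.20). PHOX2A alone ranked 30th among all nuclear coding genes, between the ribosomal protein genes RPS16 and RPLP0. These ranks rest on the deposited gene lengths, which count all annotated exons of a gene. Reads over the 3 libraries were 39669 for PHOX2A, 69123 for HAND2, 32910 for GATA3, 55904 for TBX2 and 26347 for GATA2.

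Of 30 adrenergic regulators listed, 28 were in the table and 25 of these were expressed (89.3%, against 68.5% of all nuclear coding genes, the share to set beside each list's share given here), with a median FPKM of 26.6. This list and the others were written with earlier results of these data known, so a list's share is no independent test. TBX2, a T-box factor of the adrenergic circuit, had FPKM values of 177.4, 177.0 and 186.6. GATA2 had a mean FPKM of 115.0 ± 2.17, INSM2 of 88.8 ± 1.23, ISL1 of 81.2 ± 3.33 and SOX4 of 61.5 ± 0.471 (SD, n = 3). TFAP2B had a mean of 31.5 ± 0.696. The 3 that were not expressed are named after their values were seen. INSM1, a zinc finger factor of neuroendocrine cells, had 2, 2 and 0 counts. MYT1 had 1 count in all, and EBF3 had 18.

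**Figure D2:**
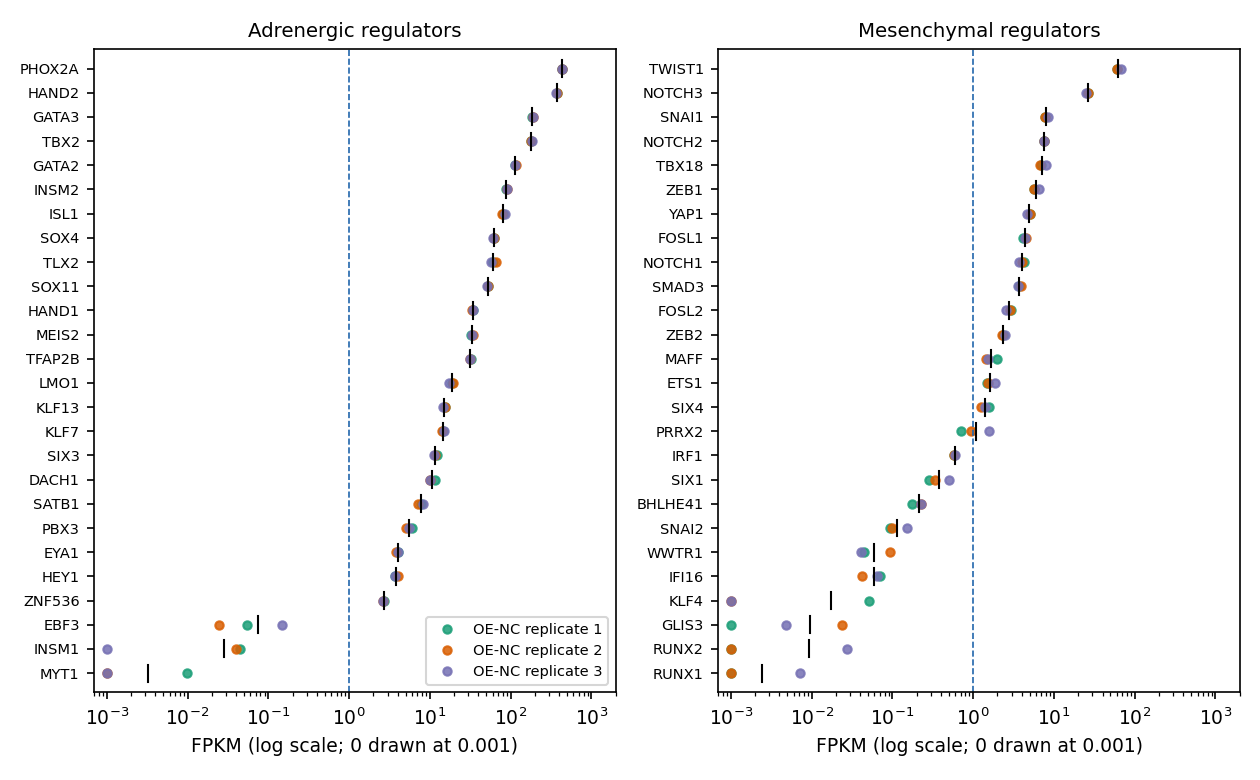
FPKM (log scale) of adrenergic (left, 26 drawn) and mesenchymal (right, 26 drawn) regulators; coloured points are the 3 OE-NC libraries, black ticks are means, and the dashed line is FPKM 1. On the left 23 of 26 regulators lie above the line in every library, up to PHOX2A at 432.5; on the right 15 of 26 do, up to TWIST1 at 62.8.

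Of 30 mesenchymal regulators listed, 26 were in the table and 15 were expressed (57.7%, against 68.5% of all nuclear coding genes), with a median FPKM of 1.64. TWIST1, a helix-loop-helix factor of neural crest migration that is also present in adrenergic lines, was the highest and had FPKM values of 60.4, 59.7 and 68.3. NOTCH3, a receptor of the mesenchymal state, had a mean FPKM of 26.1 ± 0.717, SNAI1 of 7.92 ± 0.429, TBX18 of 7.16 ± 0.620, ZEB1 of 5.92 ± 0.486 and YAP1 of 4.92 ± 0.287. The members without expression, named after their values were seen, included SNAI2 (0.114 ± 0.0314), WWTR1 (0.0596 ± 0.0297), RUNX1 (2 counts in all) and RUNX2 (4 counts). Summed over members, adrenergic regulators had FPKM totals of 1872, 1892 and 1884 and mesenchymal regulators of 144.3, 143.0 and 153.1. The ratio of the sums was 12.97, 13.24 and 12.31 in replicates 1 to 3, and it depends on which genes were listed. FOXC1, a forkhead factor of mesenchyme that is in neither list and was chosen after its values were seen, had a mean FPKM of 92.4 ± 2.77, above TWIST1.

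Closely related factors often differed widely in level. HAND2 stood 10.96 ± 0.276 times above HAND1 (SD of the ratio, n = 3), ISL1 13.09 ± 1.595 times above ISL2 and NR2F1 4.995 ± 0.286 times above NR2F2. GATA3 and GATA2 were closer, at a ratio of 1.62 ± 0.0382. TBX3 was at a mean FPKM of 0.435 where TBX2 was at 180.3, and TFAP2A at 0.0523 where TFAP2B was at 31.5. In the MYC family, MYC had FPKM values of 59.1, 58.8 and 61.5, while MYCN, the oncogene amplified in a subset of neuroblastomas, had 9, 7 and 2 counts and FPKM values of 0.217, 0.152 and 0.0435. Over the 3 libraries the 95% counting interval of the FPKM of MYCN was 0.0798 to 0.213 (exact Poisson), so all 3 values of MYC lay far above it. MYCL had a mean FPKM of 2.90 ± 0.157.

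The long noncoding partners of these factors were read as well, chosen after their values were seen. HAND2-AS1, transcribed divergently from HAND2, was the most abundant gene of the antisense biotype, with FPKM values of 39.7, 38.6 and 41.0. Its exons share 24.1% of the exon bases of HAND2 on the other strand. TBX2-AS1 had a mean of 35.5 ± 2.44, GATA3-AS1 of 14.7 ± 0.701, GATA2-AS1 of 4.53 ± 0.438 and SIX3-AS1 of 2.22 ± 0.303. SATB1-AS1 was not expressed, at 0.827 ± 0.0451. Whether counting used the strand is not given in the sources used here, so reads of a gene and its antisense partner cannot be told apart where their exons overlap.

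Catecholamine synthesis starts with tyrosine hydroxylase (TH), passes through DDC and DBH, and the product is packed by SLC18A1 or SLC18A2 and taken back up by SLC6A2. The table held 15 pathway members, of which 12 were expressed (80%), with a median FPKM of 11.1. CYB561, which feeds electrons to DBH inside the vesicle, had the highest mean FPKM at 104.2 ± 2.94 (SD, n = 3). SLC6A2, the noradrenaline transporter, had FPKM values of 49.8, 50.2 and 51.6. It shares 17.9% of its exon bases on the same strand with AC136621.1, a gene at a mean FPKM of 41.4 ± 1.44, so the split of reads between them is uncertain. The cofactor enzymes QDPR and GCH1 had means of 25.1 ± 0.171 and 20.5 ± 1.45. The degrading enzyme MAOA had a mean of 20.8 ± 0.498, while MAOB had 7 counts in all, and DDC had a mean of 11.1 ± 0.734.

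Levels within the pathway were uneven. TH, the rate-limiting enzyme, named after its values were seen, had FPKM values of 3.56, 3.58 and 2.63 and ranked 8696th. DBH was at 66.5, so the enzyme at the end of noradrenaline synthesis was far above the one at its start per length. Of the vesicular transporters, SLC18A1 had a mean of 4.69 ± 0.257 and SLC18A2 of 0.656 ± 0.123, although SLC18A2 shares 56% of its exon bases with PDZD8. PNMT, which makes adrenaline, had a mean of 0.694 ± 0.00530, named after its values were seen. Genes of other transmitters were mostly low. Of 10 in the table (20% expressed, and 1 gene at an FPKM of 2), GAD1 (4.03 ± 0.265), an enzyme of GABA synthesis, and ACHE (1.19 ± 0.137), acetylcholinesterase, were expressed. HDC, the enzyme of histamine synthesis, had 0 counts, which allows an FPKM of up to 0.0148 at 3 counts over the 3 libraries.

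**Figure D3:**
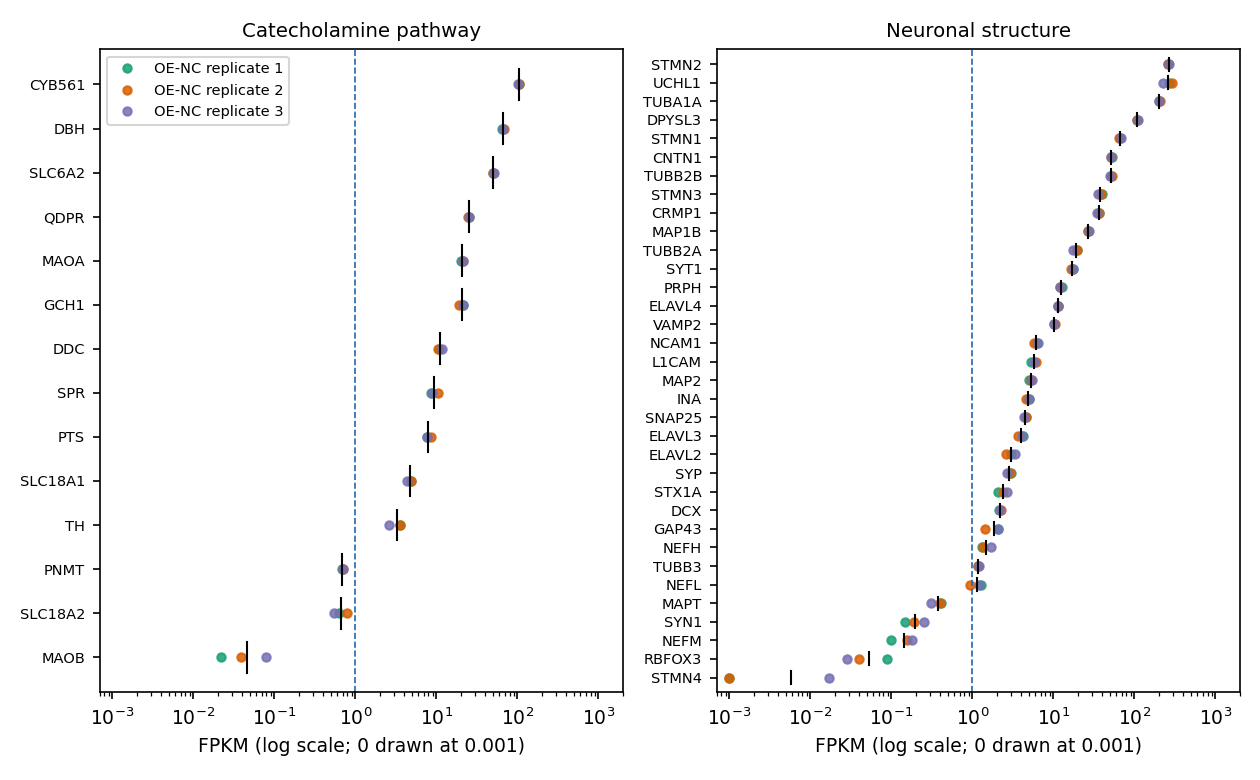
FPKM (log scale) of catecholamine pathway genes (left) and neuronal structure genes (right); coloured points are the 3 OE-NC libraries, black ticks are means, and the dashed line is FPKM 1. DBH at 66.5 lies far right of TH at 3.26, and STMN2 at 264.1 far right of TUBB3 at 1.18 and NEFM at 0.145.

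Several dense-core vesicle genes reached an FPKM of at least 100. VGF, a precursor of neuronal peptides, had a mean FPKM of 305.5 ± 9.87 and was highest in replicate 2 at 316.8. CHGB had a mean of 215.1 ± 9.08 and CHGA of 63.6 ± 1.42, so that the granin CHGB stood 3.39 times above CHGA. NPY, a peptide transmitter of sympathetic neurons, had FPKM values of 172.3, 176.7 and 174.2. GAL, another peptide, had a mean of 70.3 ± 1.52, PCSK1N of 102.5 ± 8.99, SCG2 of 59.4 ± 1.59 and CPE, a peptide-processing enzyme, of 31.8 ± 1.69. The table held 17 members, of which 11 were expressed (64.7%). SCG5, named after its values were seen, had 2 counts in all.

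Of the 34 neuronal structure genes 28 were expressed (82.4%), with a median FPKM of 5.51. STMN2, a microtubule regulator of growing axons, had FPKM values of 263.1, 259.2 and 269.9. UCHL1, a neuronal ubiquitin hydrolase, had FPKM values of 266.2, 289.0 and 225.8. Tubulin TUBA1A had a mean of 204.4 ± 3.33, DPYSL3 of 108.9 ± 2.40, STMN1 of 66.7 ± 2.01, the adhesion protein CNTN1 of 51.9 ± 0.859, TUBB2B of 51.4 ± 2.04 and STMN3 of 38.0 ± 1.78. TUBB3, the tubulin widely used as a neuronal marker, had FPKM values of 1.16, 1.18 and 1.20, and TUBB2B stood 43.6 times above it. Of the exon bases of TUBB3, 35.8% are shared on the same strand with AC092143.1, a gene with 2 counts in all. All exon bases of AC092143.1 (100%) are shared on the same strand with other genes, 57.1% of them with TUBB3. How reads on both genes were counted is not given in the sources used here, so the level of TUBB3 is uncertain and may be too low.

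Some other widely used neuronal markers, chosen after their values were seen, were low. GAP43, a growth cone protein, had a mean FPKM of 1.86 ± 0.374 and the neurofilament NEFL of 1.14 ± 0.180. NEFM, another neurofilament, had 7, 12 and 14 counts, and shares 38.9% of its exon bases with an antisense gene. RBFOX3, which encodes the mature neuron marker NeuN, had 26 counts in all. SYP, a synaptic vesicle protein, had a mean of 2.87 ± 0.154 and DCX, a protein of migrating neurons, of 2.20 ± 0.0578. Others, also chosen after their values were seen, lay above the median of the expressed coding genes. Among them were CRMP1, MAP1B and ENO2, with mean FPKM values of 36.1, 27.1 and 22.3.

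Of 18 progenitor and neural crest genes in the table, 8 were expressed (44.4%). VIM, an intermediate filament, had a mean FPKM of 37.1 ± 1.61, NES of 24.3 ± 0.899 and the stem cell factor SOX2 of 17.3 ± 0.659 (SD, n = 3). ZIC1 had a mean of 4.88 ± 0.3002, LIN28B, which blocks let-7 maturation, of 2.86 ± 0.291, and SOX9 of 2.41 ± 0.192. SOX10, named after its values were seen, had 4, 1 and 1 counts. POU5F1, a pluripotency factor, had 0 counts, which allows an FPKM of up to 0.0202.

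Most of the listed markers of Schwann cells, endothelium, epithelium, leukocytes and single organs were not expressed. For Schwann cells and glia 2 of 10 genes in the table were expressed, PMP22 (8.99 ± 0.606) and S100B (2.55 ± 0.397), and the list summed to an FPKM of 11.9 to 14.4 over the libraries. PMP22 lay above the median of the expressed coding genes. Endothelial genes summed to 0.556 to 0.807 with 0 of 5 expressed and PECAM1 at 0 counts, which allows an FPKM of up to 0.00752. Epithelial genes summed to 3.01 to 3.49 with 0 of 8 expressed, and leukocyte genes to 5.30 to 6.13, nearly all from CD74 (5.35 ± 0.426), the 1 of 5 expressed, which lay above the median of all nuclear coding genes. In a list of genes specific to single organs 0 of 12 were expressed, with ALB and MUC2 at 0 counts, which allow FPKM values of up to 0.0173 and 0.00461.

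Fibroblast and matrix genes were split, with 10 of 17 expressed (58.8%, against 68.5% of all nuclear coding genes), 0 of 17 at 0 counts and a summed FPKM of 170.7 to 176.6. COL3A1, a fibrillar collagen, had FPKM values of 68.3, 65.9 and 68.8. LUM, a matrix proteoglycan, had a mean of 42.6 ± 1.86 and fibronectin FN1 of 25.7 ± 0.105. ACTA2 had a mean of 8.08 ± 0.351 and DCN of 6.97 ± 0.110. COL1A2, which encodes a chain of the collagen most abundant in fibroblasts and was named after its values were seen, had 0, 1 and 0 counts, and COL1A1 had a mean of 2.98 ± 0.257. PDGFRA and CD44 had means of 0.204 ± 0.0146 and 0.271 ± 0.0468. The part that other cells might have in the matrix genes was not tested.

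Receptor tyrosine kinases are the cells' sensors of growth factors, and 24 of the 49 in the table were expressed (49.0%). RET, the receptor of glial cell line-derived neurotrophic factors, was the highest and had FPKM values of 49.5, 49.4 and 50.4. The collagen receptor DDR2 was close to it at 48.7 ± 1.32, and the values of these neighbours overlapped. PTK7 followed at 27.4 ± 1.20, EPHA2 at 25.04 ± 0.859, EPHB4 at 19.9 ± 0.583, EGFR at 18.2 ± 0.720, IGF1R at 17.4 ± 0.360 and RYK at 12.2 ± 0.542. ALK, the kinase mutated in a share of neuroblastomas, was named after its values were seen and had FPKM values of 1.328, 1.247 and 1.236. The neurotrophin receptors NTRK2 and NTRK3, also named after their values were seen, had 2 counts each over the 3 libraries.

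Ligands and partners of these receptors were also uneven. Beside MDK, its relative PTN had a mean FPKM of 36.7 ± 0.833. The sorting receptor SORT1 had a mean of 8.71 ± 0.130, the RET ligand NRTN of 4.53 ± 0.367, BDNF of 2.19 ± 0.244 and the RET ligand PSPN of 1.67 ± 0.0965. The RET coreceptors GFRA1, GFRA2 and GFRA3 were not expressed. GFRA1 had a mean of 0.0980 ± 0.0314, GFRA2 of 0.405 ± 0.000850 and GFRA3 of 0.115 ± 0.0560. NGFR, the low-affinity neurotrophin receptor, had a mean of 0.537 ± 0.0799. The coreceptors and NGFR were named after their values were seen.

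**Figure D4:**
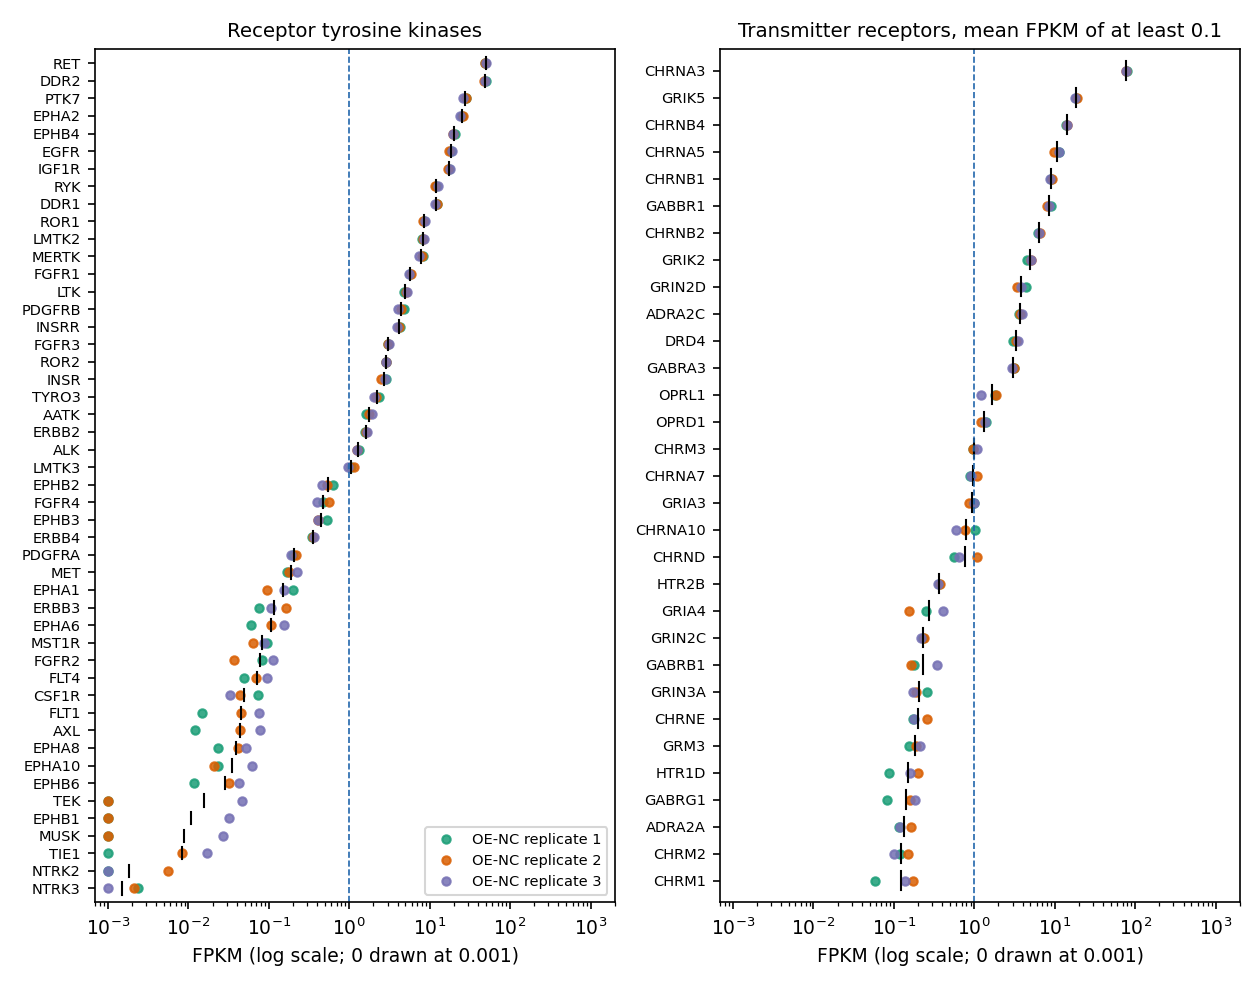
FPKM (log scale) of receptor tyrosine kinases (left, 48 drawn) and transmitter receptors (right, those with a mean FPKM of at least 0.1); coloured points are the 3 OE-NC libraries, black ticks are means, and the dashed line is FPKM 1. RET and DDR2 lead on the left at 49.7 and 48.7; CHRNA3 leads on the right at 77.9, followed by GRIK5 at 18.4.

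Of 90 transmitter receptor genes listed, 58 were in the table and 14 of these were expressed (24.1%, against 68.5% of all nuclear coding genes), and 5 of the top 8 were nicotinic acetylcholine receptor subunits. CHRNA3, the main alpha subunit of sympathetic ganglia, had FPKM values of 79.6, 77.2 and 77.0. CHRNB4 and CHRNA5, its neighbours in a gene cluster, had means of 14.1 ± 0.218 and 10.8 ± 0.835. CHRNB1 had a mean of 9.03 ± 0.229 and CHRNB2 of 6.39 ± 0.118. The kainate receptor subunits GRIK5 and GRIK2 had means of 18.4 ± 0.460 and 4.88 ± 0.291, and the GABA type B subunit GABBR1 of 8.53 ± 0.510. GABBR2, its usual partner, named after its values were seen, had 1 count in all. ADRB3 and GABRA5 had 0 counts, which allow FPKM values of up to 0.0180 and 0.0141. Of 20 peptide receptor genes 5 were expressed (25%; 3 genes at an FPKM of 2), led by RAMP1, an accessory protein of the calcitonin-like receptors, at 45.6 ± 2.17. The endothelin receptor EDNRA had a mean of 8.23 ± 0.247 and NPY2R, a receptor of the NPY peptide, of 1.34 ± 0.0539.

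The table held 41 nuclear receptor genes, of which 24 were expressed (58.5%). The orphan receptors NR2F6 and NR2F1 led with means of 35.7 ± 2.58 and 24.1 ± 1.03. All 3 retinoic acid receptors were expressed, RARA at 13.1 ± 0.454, RARG at 12.9 ± 0.870 and RARB at 7.78 ± 0.215, beside the high CRABP2. RARB was named after its values were seen. The steroid receptors ESR1 and NR3C2, likewise named afterwards, had 39 and 12 counts in all, and PGR had 0 counts, which allows an FPKM of up to 0.00379.

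Of 26 p53 and cell cycle genes 23 were expressed (88.5%), with a median FPKM of 11.9. After CDKN1A the highest were PCNA (77.2 ± 3.15), a clamp of the replication fork, CDK4 (66.9 ± 2.23), CCND1 (64.65 ± 1.601), MYC (59.8 ± 1.51), CDK6 (50.01 ± 1.54), CDKN1B (49.5 ± 0.549) and TP53INP1 (35.4 ± 0.346). CDKN1A stood above the kinases whose complexes its product binds, since CDK1 and CDK2, named after their values were seen, were at 9.43 ± 0.189 and 9.23 ± 0.509. CCND1 was at 64.7 where its relative CCND2 was at 0.0949, and CDKN2B had 17 counts in all. Of CDK4, 43% of the exon bases are shared with TSPAN31. All 13 telomere genes in the table were expressed, from NOP10 at 148.8 ± 6.74 to TERT, the catalytic subunit of telomerase, at 2.73 ± 0.162; TERT was named after its values were seen.

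Genes of antigen presentation were present in part. The table held 16, of which 8 were expressed (50%; 5 genes at an FPKM of 2). HLA-C had a mean FPKM of 27.6 ± 1.81, B2M, the shared light chain, of 15.5 ± 0.916 and HLA-E of 10.8 ± 1.02. HLA-B had 0 counts in every library, which allows an FPKM of up to 0.0191. HLA genes resemble each other in part of their sequence and differ between alleles, so the split of reads among them is uncertain. The peptide transporters TAP1 and TAP2 had means of 1.28 ± 0.140 and 1.34 ± 0.269, and TAP2 shares 32.3% of its exon bases on the same strand with another gene. Of 17 genes that sense foreign nucleic acid or respond to it, 7 were expressed (41.2%), led by ISG15 at 36.0 ± 1.44, while the sensors CGAS and TMEM173 (STING), named after their values were seen, had 25 and 27 counts in all.

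Of 12 cancer-germline genes in the table, 6 were expressed (50%). The 6 included MAGED2 and MAGED1, which are widely expressed, at mean FPKM values of 89.7 and 43.4. The other genes of the list are normally active in germ cells. MAGEA3 had FPKM values of 80.9, 82.6 and 72.9, PRAME a mean of 20.9 ± 0.711 and MAGEA10 of 20.8 ± 0.510. BRDT had 0 counts, which allows an FPKM of up to 0.0135. MAGEA genes resemble each other to differing degrees, so the split of reads among them is uncertain.

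By biotype, protein-coding genes, the mitochondrial ones included, held 95.2% of the counts of these libraries, which were made with an mRNA kit. Among noncoding biotypes 484 of 3154 antisense genes (15.4%), 363 of 2601 lincRNA genes (14.0%) and 384 of 2795 processed pseudogenes (13.7%) were expressed, against 45.0% of the whole table. The lincRNA genes with the highest mean FPKM were NORAD at 66.9 ± 2.43 and SNHG8 at 60.3 ± 4.93, followed by MALAT1 at 38.8 ± 1.05. GAS5, a host of small nucleolar RNAs, had a mean of 187.3 ± 5.31. Processed pseudogenes such as RPS2P5 (402.5 ± 15.8) and EEF1A1P5 (259.5 ± 20.8) are near copies of the abundant RPS2 and EEF1A1, so these values are uncertain.

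Mitochondrially encoded genes took 10.3%, 10.2% and 11.4% of the counts in replicates 1 to 3, with a mean of 10.6% ± 0.708 (SD, n = 3). The 13 mitochondrial protein-coding genes had mean FPKM values from 600.7 (MT-ATP8) to 14683 (MT-CO3). MT-ATP8 shares 22.2% of its exon bases on the same strand with MT-ATP6, which had a mean of 7347. The split of reads between these neighbours is therefore uncertain. MT-CO1, a subunit of cytochrome oxidase, had FPKM values of 14083, 13894 and 16045, so replicate 3 was the highest. The 77 cytosolic ribosomal protein genes took 6.52% ± 0.205.

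Whether a gene differed among the 3 libraries beyond counting error was tested on raw counts with a chi-square test on 2 degrees of freedom, adjusted by Benjamini-Hochberg over the 16387 genes with at least 30 counts in all. Of these, 1741 (10.6%) passed at 0.05, and the median of highest over lowest among them was 1.19. The test compares these libraries, not conditions, and 1 read is not always 1 molecule. HAND2, GATA3, DBH and CDKN1A did not pass, with adjusted p values of 0.102, 0.319, 0.286 and 0.882. Of the adrenergic regulators 4 of 25 tested passed, TBX2, ISL1, TLX2 and SATB1. TBX2 had the smallest adjusted p of these (8.45e-07) at 1.06 from lowest to highest. Replicate 3 stood farthest from the other 2 in 820 of the 1741 genes, higher in 423 and lower in 397. Without replicate 3 the test called 444 of 15315 genes, without replicate 2 it called 765 of 15289, and without replicate 1 it called 1346 of 15435.

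**Figure D5:**
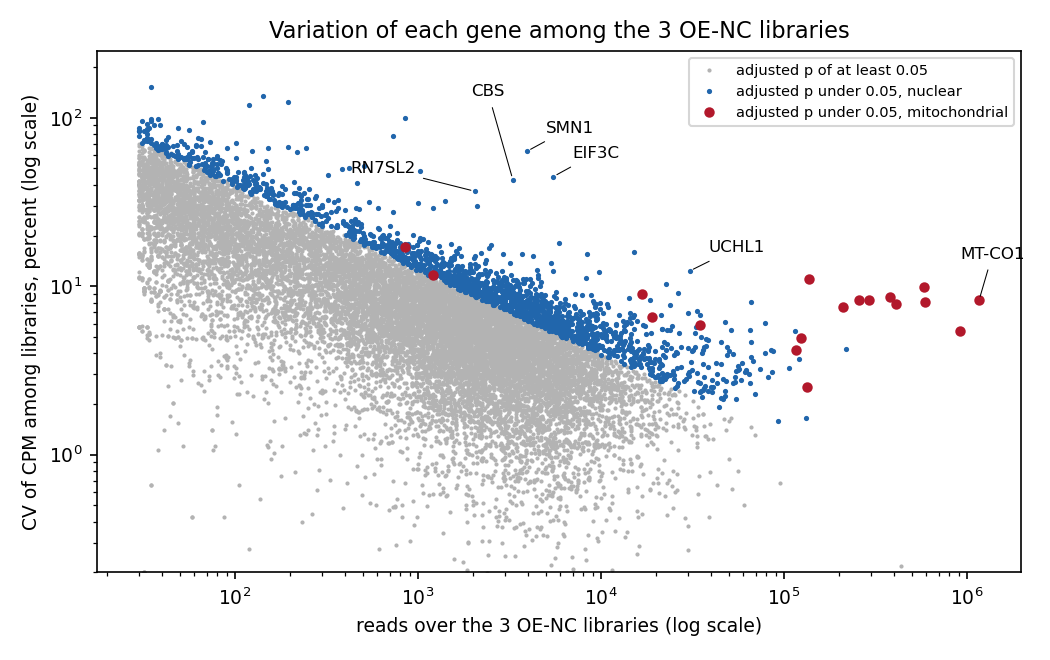
Coefficient of variation of CPM among the 3 OE-NC libraries (percent, log scale) against reads over the 3 libraries (log scale); grey points did not pass the chi-square test, blue points are nuclear and red points mitochondrial genes that passed. Most of the 1741 genes that passed lie along the edge where counting error ends, while SMN1, EIF3C and CBS stand above their neighbours.

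Among the mitochondrial genes tested 18 of 27 passed, and in 14 of them replicate 3 stood farthest from the others and higher. MT-ND4, a subunit of complex I, stood at 10775, 10913 and 12805 CPM. Ribosomal protein genes, which are deeply counted, passed in 66 of 77 cases (85.7%), with a median of highest over lowest of 1.08 among those that passed. Of the 273 genes at an FPKM of at least 100 in every library, a set that overlaps with them, 162 passed (59.3%), also with a median of 1.08; the difference between the shares was not tested. RPLP1 stood at 1315, 1397 and 1188 CPM, and RPL13 at 1572, 1645 and 1457. UCHL1 stood at 613.1, 670.4 and 523.3 CPM, lowest in replicate 3, with an adjusted p of 8.27e-67.

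The largest differences among genes named by the smallest p fell on genes with a near-identical copy. SMN1, which encodes the survival motor neuron protein, had 456, 2187 and 1300 counts in replicates 1 to 3, a range of 4.34 times after scaling, with an adjusted p of 1.44e-213. Its copy SMN2 had 428, 436 and 492 counts, with an adjusted p of 0.378. The sum of both was 55.9, 150.2 and 102.9 CPM, so it moved as SMN1 did. EIF3C, a translation initiation factor subunit, had 2116, 2451 and 921 counts. Its copy EIF3CL had 185, 126 and 159 counts and also passed the chi-square test, with an adjusted p of 0.00372 and a range of 1.62 times. The sum of EIF3C and EIF3CL was 145.6, 147.6 and 62.0 CPM. RN7SL2, a signal recognition particle RNA that also has near copies, had 758, 882 and 410 counts. RPL14P1, a processed pseudogene of RPL14, had 437, 162 and 433. CBS, an enzyme of cysteine synthesis chosen after its values were seen, had 764, 1686 and 852 counts, highest in replicate 2. Whether CBS has a near copy was not examined here. The copies SMN2 and EIF3CL were chosen after their values were seen, and how the authors assigned reads shared between copies is not given in the sources used here.

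No pair of libraries agreed within sampling noise. The chi-square per degree of freedom over genes was 2.23 for replicates 1 and 2, 3.34 for 1 and 3, and 4.17 for 2 and 3, so no pair was counted as 1 library. The test allows for sampling noise only, so it cannot tell separate cultures from repeat preparations of the same RNA. Across 28752 genes, which are not independent replicates, Pearson's r of log2(FPKM + 1) was 0.989 for each pair.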

How the data were processed

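Total RNA of 3 OE-NC samples was made into libraries with the SMARTER mRNA kit, and these were sequenced. The authors deposited raw read counts per gene, FPKM and a gene length. The FPKM values deposited by the authors equal the count divided by length and by 1.01 to 1.02 times the library total. The length of each of the 28752 genes equals the union of its exons in GENCODE 29, so levels and ranks by FPKM depend on it. The 12 per-sample columns of other samples or measures were not used. No source used here names the aligner, the counter or the strand setting. The submitters' processing notes name GRCh37, but the 28752 deposited gene intervals equal GENCODE 29 on GRCh38. Depth was 15657848 to 17591718 counts, so 3 counts over the libraries equal 0.0592 CPM; floors cover counting error only. Genes absent from the table were not analysed here, and some members are not reported here; counts, sums and medians of a list include them.

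Expressed means a deposited FPKM of at least 1 in all 3 libraries. Variation among libraries was tested with a chi-square test on TMM-scaled sizes from edgeR 4.0.16 (the common biological coefficient of variation was 4.26%), with DESeq2 1.42.0 size factors as an alternative, and the code was tested on simulated data. The gene lists (24 lists of 622 genes, 484 of them in the table) and members were chosen with earlier results of these data known. Named were the 4 markers, the 20 most abundant nuclear coding genes, up to 5 per noncoding biotype, up to 8 expressed members and 6 members at 0 counts per list, related pairs, and, of varying genes, 10 with the farthest library higher and 10 lower by smallest adjusted p; not all are printed, and this reading of direction was chosen after the data were seen.

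Promoters were matched by symbol, which covered fewer than 80% of nuclear coding genes; RefSeq synonyms were then added, and chromosomes 8 and Y left out, giving 12606 promoters. These are 81.9% of the 15401 genes on the other nuclear chromosomes but 79.2% of all 15917. The first listed start of a gene was used.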

Additional observations from a re-analysis of the deposited data

How the results depend on the processing

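No paired analysis was possible because only 1 group was analysed. The count of expressed genes, 12929, ranged from 10851 at FPKM 2 to 15845 at TPM 1, and from 13159 to 13192 with a replicate left out. The count of genes at 0, 1224, became 4357 when up to 2 counts in total were allowed, and 2204 to 2324 with a replicate left out, where fewer reads were summed. The 1741 varying genes became 1821 with raw totals, 1732 with DESeq2 size factors, 1524 when all genes with a count were tested, 1600 at 300 counts and 1717 without mitochondrial genes. With a replicate left out they were 444 to 1346; such tests rest on fewer samples. The mitochondrial share stayed within 10.2% to 10.9%. List counts stayed within 1.5 times for 22 of 24 lists at FPKM 0.5, 21 at FPKM 2 and 22 at TPM 1; epithelial genes went from 0 to 2 at FPKM 0.5 and to 3 at TPM 1, and endothelial genes from 0 to 1 under both. At FPKM 2 peptide receptors went from 5 to 3, antigen presentation genes from 8 to 5 and genes of other transmitters from 2 to 1. The ranks of HAND2, GATA3, DBH, CDKN1A and PHOX2A were the same under TPM. TPM rescales all genes of a library alike and cannot change ranks within it, so this is no test of the ranks. All 3 pairs of libraries differed also at 300 counts, an alternative chosen after seeing the data. Of the expressed genes, 203 had under 30 counts, and their levels are the least certain.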
